A study of Mus musculus with 12 samples.

Results

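The proteasome genes described here are 42 of the 56691 genes listed for each of 2 mouse mammary tumour lines in which Nedd4 was knocked out. They were chosen by gene symbol. The core particle contributed 14 genes, Psma1 to Psma7 (alpha rings) and Psmb1 to Psmb7 (beta rings). The base of the regulatory particle contributed 6 ATPases, Psmc1 to Psmc6, and 4 other subunits, Psmd1, Psmd2, Psmd4 and Adrm1. The lid contributed 8 genes, Psmd3, Psmd6, Psmd7, Psmd8, Psmd11, Psmd12, Psmd13 and Psmd14. The assembly factors were 8 genes, Pomp, Psmg1 to Psmg4, Psmd5, Psmd9 and Psmd10. The last 2 were Nfe2l1, a transcription factor that induces proteasome genes, and Ddi2, the protease that cleaves the NFE2L1 protein to activate it. All 42 were listed in both lines and all 42 passed the low-count filter in both.

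As background, the proteasome is the protease that degrades proteins tagged with ubiquitin. Its barrel-shaped core carries the peptidase sites inside, and the regulatory particle at its ends binds ubiquitin chains, removes them and threads the unfolded protein into the core. Nedd4 encodes a ubiquitin ligase, an enzyme that attaches ubiquitin to target proteins. When proteasome activity is low, the factor NFE2L1 raises the transcription of the subunit genes together.

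Messenger RNA from cultured EMT6 and 4T1 cells was sequenced in 12 libraries, 3 in each of 4 groups. EMT6 KO cells (sgNEDD4, genotype KO) were compared with EMT6 control cells (genotype WT), and 4T1 KO cells (sgNEDD4) with 4T1 control cells (WT). EMT6 and 4T1 are established mouse mammary carcinoma lines, and all 4 groups grew in the same medium with serum. The guide sequence, and whether a group is 1 clone, a pool or separate cultures, is not stated in the labels, so p-values measure only the spread between libraries. Libraries held 13705612 to 19761604 counts and all carry 1 batch label. Genes with at least 1 count numbered 18119 to 18371 in EMT6 KO libraries and 18014 to 18833 in EMT6 control libraries, and 20937 to 21264 in 4T1 KO libraries against 18836 to 19017 in 4T1 control libraries.

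Nedd4 itself had 12.1, 11.5 and 12.1 FPKM in the EMT6 KO libraries, against 122, 121 and 117 FPKM in the EMT6 control libraries. The 4T1 values of Nedd4 were 24.7, 24.9 and 25.3 FPKM in the 4T1 KO libraries, against 94.4, 97.6 and 93.5 FPKM in the 4T1 control libraries. FPKM are counts scaled by the exonic length of the gene and the total of the library. Nedd4 fell in both lines (EMT6 log2 change -3.34 ± 0.06, adjusted p = 5.60e-16; 4T1 log2 change -2.01 ± 0.04, adjusted p = 6.19e-21), with all KO libraries below all controls, and its transcript was still detected in KO cells. Marker genes of the labelled epithelial tumour type moved as well. The summed level of Epcam, Krt8, Krt18, Krt14, Krt5 and Cdh1 was 378 to 392 FPKM in EMT6 KO libraries and 347 to 414 FPKM in EMT6 control libraries. In 4T1 the same sum was 1317 to 1394 FPKM in KO libraries and 1839 to 1913 FPKM in control libraries. Krt5 was listed at 0 in both lines, and Cdh1 averaged 0.00667 FPKM in both EMT6 groups. Of 6 epithelial markers, 4 were tested in EMT6, where 3 were called lower and 1 higher in KO cells. In 4T1, 5 were tested and 3 were called lower. Over all tested genes, 56% were called in EMT6 and 57% in 4T1. The log2 changes of the 4 epithelial markers tested in EMT6 ran from -3.149 to 0.263 (median -1.409). The median level of the 6 markers was low there, 1.07 FPKM in EMT6 control cells and 0.25 FPKM in EMT6 KO cells. The highest marker averaged 293 FPKM in EMT6 control cells and 352 FPKM in EMT6 KO cells, so the EMT6 sum mostly reflects that level. Leukocyte markers summed to at most 1.1 FPKM in any library, with Cd3e at 0. Endothelial and fibroblast markers summed to 194 to 226 FPKM in EMT6 KO libraries and 157 to 178 FPKM in EMT6 control libraries, mostly Col1a1, and to 5.1 to 6.2 FPKM in 4T1. The part of these shifts in the proteasome results was not tested.

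In EMT6, 17 of the 42 proteasome genes rose in KO cells and 7 fell. In 4T1, 2 rose and 23 fell. The members include 32 subunits of the assembled proteasome. Of these 32, 12 rose and 5 fell in EMT6 KO cells, and 0 rose and 20 fell in 4T1 KO cells. Calls are at an adjusted p under 0.05 in edgeR's quasi-likelihood test over all tested genes. By the same rule 27.9% of all tested EMT6 genes were called higher and 28.2% lower, 56% in all. In 4T1, 28% of all tested genes were called higher and 29% lower, 57% in all. The share of members called at all, 24 of 42 in EMT6 and 25 of 42 in 4T1, was near that of all genes. Of the called members, 17 of 24 were higher in EMT6 and 23 of 25 lower in 4T1, while the calls of all genes were split nearly evenly by direction. The median log2 change of KO over control was 0.12 over the members in EMT6, against 0.00 over all tested genes, and -0.17 over the members in 4T1, against 0.00 over all tested genes.

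In single libraries, 20 members were higher in every EMT6 KO library than in any control and 9 were lower in every one, 29 in all, where 62.6% of all tested genes did not overlap, 31.3% above and 31.3% below. In 4T1, 9 members were above and 16 below, 25 in all, where 61.9% of all tested genes did not overlap, 37.1% above and 24.8% below. The split of calls in 4T1 moved with the scaling and with the filter. With library totals in place of TMM factors, 10 members were called higher and 16 lower in 4T1, the median member change was -0.09, and 61.2% of all called genes were higher, against 49.1% with TMM. Of the 32 subunits, 7 were then called higher and 14 lower. FPKM use library totals, so a fitted 4T1 change lies 0.08 below the log2 ratio of its FPKM means. In EMT6 the same exchange left 17 members called higher and 7 lower. With TMM kept and only genes of at least 5 FPKM on average, 6 of the 32 subunits were called higher and 16 lower in 4T1. Of all called 4T1 genes, 49.9% were higher under that filter. In bulk RNA a change in level per cell and a change in the share of cells that carry a transcript cannot be told apart.

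**Figure D1:**
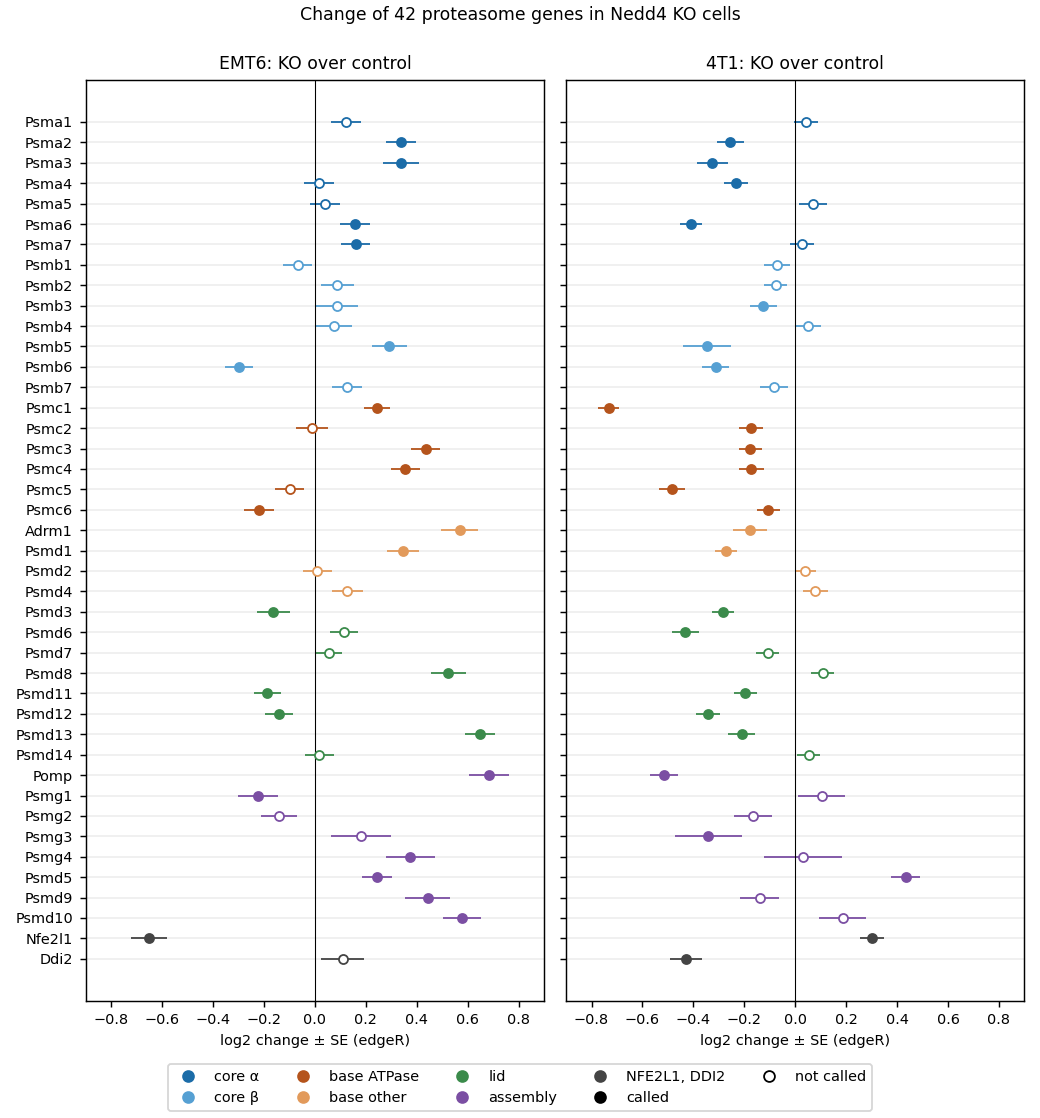
Log2 change of KO over control (x axis, edgeR, bars are SE, n = 3 libraries per group) for each of the 42 genes, ordered by role, in EMT6 (left) and 4T1 (right). Filled points passed an adjusted p of 0.05. Filled points lie mostly right of 0 in EMT6 (17 of 24) and mostly left of 0 in 4T1 (23 of 25).

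Summed over a role, the core particle had 1126, 1129 and 1127 FPKM in EMT6 KO libraries, against 1036, 1111 and 1055 FPKM in EMT6 control libraries. In 4T1 the core sum was 733, 735 and 764 FPKM in 4T1 KO libraries, against 801, 752 and 803 FPKM in 4T1 control libraries. The EMT6 KO sums lay above all controls and differed among themselves by 3 FPKM or less, and the 4T1 groups overlapped. The base summed to 744, 737 and 741 FPKM in EMT6 KO libraries, against 650.0, 678 and 682 FPKM in EMT6 control libraries. In 4T1 it summed to 557, 566 and 569 FPKM in 4T1 KO libraries, against 667, 631 and 664 FPKM in 4T1 control libraries. KO libraries were all above controls in EMT6 and all below them in 4T1. The lid summed to 446, 442 and 439 FPKM in EMT6 KO libraries, against 413, 437 and 411 FPKM in EMT6 control libraries, with all KO libraries above the controls. In 4T1 it summed to 451, 438 and 451 FPKM in 4T1 KO libraries, against 475, 444 and 464 FPKM in 4T1 control libraries, and the groups overlapped. Assembly factors summed to 190.3, 191 and 191 FPKM in EMT6 KO libraries, against 151, 163 and 154 FPKM in EMT6 control libraries, with no overlap. In 4T1 they summed to 93.7, 99.1 and 102 FPKM in 4T1 KO libraries, against 94.6, 88.6 and 98.5 FPKM in 4T1 control libraries, and the groups overlapped. These sums weight each gene by its level and carry no test.

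**Figure D2:**
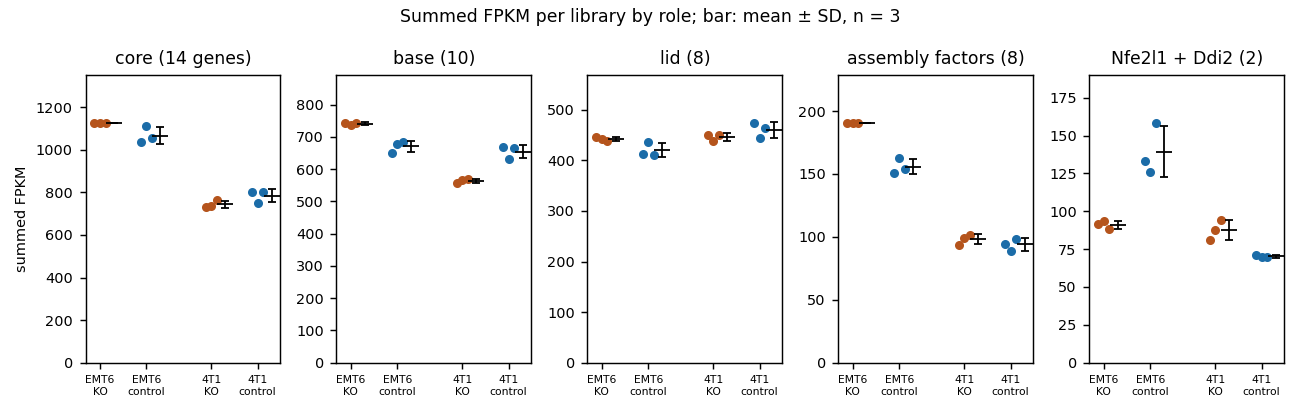
Summed FPKM (y axis) of the genes of each role in every library, with KO left of control within each line. Points are libraries and bars the mean ± SD of 3. EMT6 KO libraries lie above their controls in the core, base, lid and assembly panels, and 4T1 KO libraries lie below theirs in the base panel. For Nfe2l1 plus Ddi2 the order is the opposite in each line.

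Among the 32 subunits, levels per length spanned a wide range. In EMT6 KO cells they ran from 13.3 FPKM (Adrm1) to 149 FPKM (Psma5), a ratio of 11.2, and in EMT6 control cells from 8.95 FPKM (Adrm1) to 145 FPKM (Psma5), a ratio of 16.2. In 4T1 KO cells they ran from 8.18 FPKM (Adrm1) to 137 FPKM (Psma6), a ratio of 16.7, and in 4T1 control cells from 8.76 FPKM (Adrm1) to 172 FPKM (Psma6), a ratio of 19.7. Over all 42 members the lowest level in control cells was that of an assembly factor, Psmd9 in EMT6 (2.81 FPKM) and Psmg3 in 4T1 (3.26 FPKM). Across the 42 members the control levels of the lines had a Spearman correlation of 0.86, and across all 12006 genes tested in both lines it was 0.87. Both values describe these libraries and carry no test.

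Promoter sequences are shown for 4 members as examples. Psmb5, Adrm1 and Pomp were called in opposite directions in the lines, and Psmb6 was called lower in both. The capitals mark TGACNNNGC, the core letters of the antioxidant response element that NFE2L1 and related factors recognise, searched on both strands. Each sequence holds 250 bases before to 50 after the gene start in RefSeq (build GRCm38.p6) and is written 5′ to 3′ on the gene's strand. Psmb5 lies at chr14:54617946-54618245 on the minus strand, Psmb6 at chr11:70525107-70525406 on the plus strand, Adrm1 at chr2:180171338-180171637 on the plus strand and Pomp at chr5:147860378-147860677 on the plus strand.
Psmb5: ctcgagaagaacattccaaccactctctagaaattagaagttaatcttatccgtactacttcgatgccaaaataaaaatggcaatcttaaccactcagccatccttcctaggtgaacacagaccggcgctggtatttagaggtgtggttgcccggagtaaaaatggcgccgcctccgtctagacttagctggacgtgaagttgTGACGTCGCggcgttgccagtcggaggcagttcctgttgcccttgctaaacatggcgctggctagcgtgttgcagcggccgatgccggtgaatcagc
Psmb6: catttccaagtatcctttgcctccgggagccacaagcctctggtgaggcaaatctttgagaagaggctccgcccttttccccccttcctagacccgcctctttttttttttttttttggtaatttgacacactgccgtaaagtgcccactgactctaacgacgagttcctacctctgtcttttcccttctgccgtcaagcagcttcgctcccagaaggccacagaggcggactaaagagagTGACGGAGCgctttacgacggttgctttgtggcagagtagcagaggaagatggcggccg
Adrm1: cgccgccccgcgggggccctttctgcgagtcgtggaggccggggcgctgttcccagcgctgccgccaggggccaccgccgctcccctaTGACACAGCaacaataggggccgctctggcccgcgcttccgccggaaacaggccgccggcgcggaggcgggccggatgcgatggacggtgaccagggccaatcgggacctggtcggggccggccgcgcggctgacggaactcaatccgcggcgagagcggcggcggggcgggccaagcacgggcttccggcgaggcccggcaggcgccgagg
Pomp: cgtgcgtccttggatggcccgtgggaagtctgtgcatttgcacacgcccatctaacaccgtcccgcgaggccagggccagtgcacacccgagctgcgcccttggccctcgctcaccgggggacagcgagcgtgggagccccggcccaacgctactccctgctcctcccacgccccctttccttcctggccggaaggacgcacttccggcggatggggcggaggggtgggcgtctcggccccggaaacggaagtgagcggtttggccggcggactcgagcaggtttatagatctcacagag
Psmb5, Psmb6 and Adrm1 each hold 1 match, and these letters are not in the Pomp window. Of the 35 members with a promoter in the RefSeq table, 6 held a match (17.1%), namely Adrm1, Psmb5, Psmb6, Psmc6, Psmd9 and Psmd12, against 14% of the 27025 genes in the table. CCAAT, the letters bound by the factor NF-Y, stood in 13 of the 35 (37.1%), against 41.1% of all genes in the table. Among the 10 matched members called higher in EMT6 and lower in 4T1, 2 held TGACNNNGC and 5 held CCAAT. The promoters shown hold TGACNNNGC more often than the members as a set. A match is a description of letters and not a site.

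The alpha rings close the ends of the core and gate the entry of substrates. In EMT6, 4 of the 7 genes rose and 0 fell in KO cells. In 4T1, 0 rose and 4 fell. These were 57.1% higher in EMT6, where 27.9% of all tested genes were, and 57.1% lower in 4T1, where 29% were. The median log2 change over the 7 was 0.16 in EMT6 and -0.23 in 4T1. Psma2 and Psma3 rose in EMT6 (log2 changes 0.34 ± 0.06 and 0.34 ± 0.07, SE) and fell in 4T1 (-0.25 ± 0.05 and -0.33 ± 0.06). Psma6 averaged 137 ± 3.01 FPKM in 4T1 KO cells and 172 ± 5.82 FPKM in 4T1 control cells (SD, n = 3), and it fell there (log2 change -0.41 ± 0.04, adjusted p = 2.14e-08), with all KO libraries below all controls. In EMT6 Psma6 averaged 147 ± 0.793 FPKM in EMT6 KO cells and 132 ± 7.53 FPKM in EMT6 control cells (SD, n = 3) and rose (log2 change 0.16 ± 0.06, adjusted p = 0.0293). Psma7 rose in EMT6 (0.16 ± 0.06) and had 0.03 ± 0.05 in 4T1, where it was not called. The EMT6 calls of Psma6 and Psma7 were lost when single libraries were left out. Psma6 missed the threshold without EMT6 KO replicate 1, 2 or 3 or control replicate 1 (adjusted p 0.061 to 0.115, log2 change 0.11 to 0.16), and Psma7 without EMT6 KO replicate 1 or 2 or control replicate 1 (0.0695 to 0.109, log2 change 0.12 to 0.17). Psma4 was lower in 4T1 KO cells (-0.23 ± 0.05) and had 0.02 ± 0.06 in EMT6. Psma1 and Psma5 were called in neither line, with 0.12 ± 0.06 and 0.04 ± 0.06 in EMT6 and 0.04 ± 0.05 and 0.07 ± 0.05 in 4T1. A processed copy, Psma5-ps, was listed at 20.4 FPKM in EMT6 KO cells and 18.5 FPKM in EMT6 control cells. It was listed at 7.33 FPKM in 4T1 KO cells and 6.85 FPKM in 4T1 control cells. Reads of Psma5 may therefore be split between Psma5 and its copy.

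The beta rings hold the peptidase sites, which lie in Psmb5 (chymotrypsin-like), Psmb6 (caspase-like) and Psmb7 (trypsin-like). The calls of the 3 catalytic genes differed from each other. Psmb5 (ENSMUSG00000022193, chromosome 14) had 56.6, 56.96 and 62.04 FPKM in the EMT6 KO libraries, against 47.04, 48.2 and 48.1 FPKM in the EMT6 control libraries. In 4T1 cells Psmb5 stood at 21.8, 24.3 and 29.5 FPKM in the 4T1 KO libraries, against 29.9, 28.4 and 32.9 FPKM in the 4T1 control libraries. All EMT6 KO libraries were above the controls (log2 change 0.29 ± 0.07, adjusted p = 0.00168). In 4T1 the KO libraries were called lower (log2 change -0.35 ± 0.09, adjusted p = 0.00307), yet the highest KO library lay between controls. Psmb6 (ENSMUSG00000018286, chromosome 11) had 66.7, 68.7 and 68.2 FPKM in the EMT6 KO libraries, against 81.1, 86.2 and 82.98 FPKM in the EMT6 control libraries. In 4T1, Psmb6 had 41.3, 41.6 and 41.7 FPKM in the 4T1 KO libraries, against 52.3, 45.1 and 48.95 FPKM in the 4T1 control libraries. Every KO library was below every control in both lines (EMT6 log2 change -0.30 ± 0.05, adjusted p = 2.17e-04; 4T1 log2 change -0.31 ± 0.05, adjusted p = 2.35e-05). Psmb7 had 47.6, 49.5 and 48.8 FPKM in the EMT6 KO libraries, against 42.4, 43.7 and 47.7 FPKM in the EMT6 control libraries. The 4T1 values of Psmb7 were 25.1, 27.2 and 28.8 FPKM in the 4T1 KO libraries, against 26.4, 27.5 and 27.5 FPKM in the 4T1 control libraries. The groups of Psmb7 overlapped in both lines and it was called in neither (EMT6 log2 change 0.13 ± 0.06, adjusted p = 0.0721; 4T1 log2 change -0.08 ± 0.05, adjusted p = 0.192).

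The 4 other beta genes are structural parts of the rings. In EMT6 none of the 4 was called, with log2 changes of -0.07 ± 0.06 for Psmb1, 0.09 ± 0.06 for Psmb2, 0.09 ± 0.08 for Psmb3 and 0.07 ± 0.07 for Psmb4. In 4T1, Psmb3 was called lower (log2 change -0.13 ± 0.05, adjusted p = 0.0494) with overlapping libraries. That call was lost without 4T1 KO replicate 1, 2 or 3 or control replicate 1 or 3 (adjusted p 0.0621 to 0.175, log2 change -0.14 to -0.09). Psmb1, Psmb2 and Psmb4 had -0.07 ± 0.05, -0.08 ± 0.05 and 0.05 ± 0.05 in 4T1 and were not called. Of all 7 beta genes, 1 rose and 1 fell in EMT6 KO cells, and 0 rose and 3 fell in 4T1 KO cells, with medians of 0.09 and -0.08. The EMT6 shares were 14.3% higher and 14.3% lower, where 27.9% and 28.2% of all tested genes were. The 4T1 share called lower was 42.9%, where 29% of all tested genes were.

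**Figure D3:**
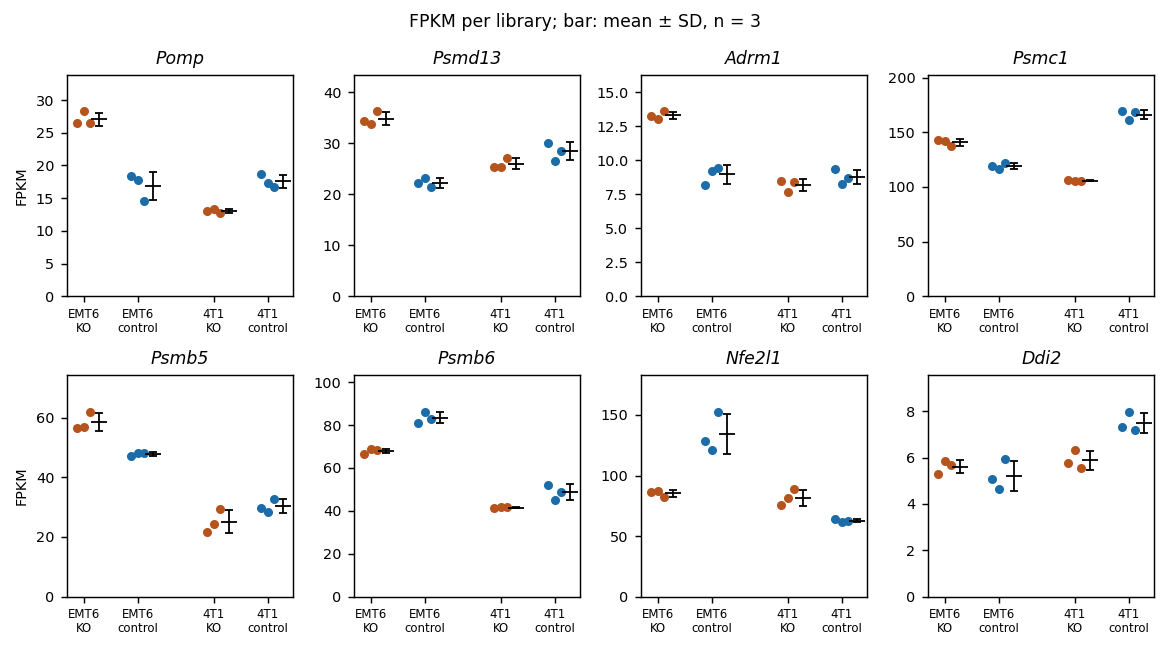
FPKM (y axis, from 0) in every library for 8 genes, with KO libraries in orange left of control libraries in blue within each line. Points are libraries and bars the mean ± SD of 3. Pomp, Psmd13, Adrm1 and Psmc1 are higher in EMT6 KO than in EMT6 control libraries. In 4T1 the KO libraries of Pomp and Psmc1 lie below their controls and those of Psmd13 and Adrm1 overlap them. Psmb6 is lower in KO libraries of both lines.

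The 6 ATPases of the base form the ring that unfolds substrates and pushes them into the core. In EMT6, 3 rose and 1 fell in KO cells (median log2 change 0.12). In 4T1 all 6 fell (median -0.18). The EMT6 shares were 50% higher and 16.7% lower, where 27.9% and 28.2% of all tested genes were. In 4T1, 29% of all tested genes were called lower. Psmc1 (ENSMUSG00000021178, chromosome 12) had 143, 142 and 137 FPKM in the EMT6 KO libraries, against 119, 116 and 122 FPKM in the EMT6 control libraries. In 4T1 cells Psmc1 stood at 106, 105 and 105 FPKM in the 4T1 KO libraries, against 169, 162 and 168 FPKM in the 4T1 control libraries. It rose in EMT6 (log2 change 0.24 ± 0.05, adjusted p = 7.23e-04) and had the lowest log2 change of any member in 4T1 (log2 change -0.73 ± 0.04, adjusted p = 5.45e-13), without overlap in either line. Psmc3 had 117, 116 and 123 FPKM in the EMT6 KO libraries, against 85.5, 91.9 and 86.03 FPKM in the EMT6 control libraries. In 4T1, Psmc3 had 66.6, 71.5 and 74.1 FPKM in the 4T1 KO libraries, against 76.3, 74.97 and 75.8 FPKM in the 4T1 control libraries. It rose in EMT6 (log2 change 0.43 ± 0.06, adjusted p = 5.64e-06) and was lower in 4T1 (log2 change -0.18 ± 0.05, adjusted p = 0.00189), with no overlap in either line.

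Psmc5 had 94.9, 95.6 and 89.1 FPKM in the EMT6 KO libraries, against 96.8, 99.7 and 103 FPKM in the EMT6 control libraries. The 4T1 values of Psmc5 were 73.6, 76.5 and 72.1 FPKM in the 4T1 KO libraries, against 105, 93.5 and 96.2 FPKM in the 4T1 control libraries. KO libraries were below controls in both lines, and the call was made in 4T1 (log2 change -0.48 ± 0.05, adjusted p = 1.42e-08) and not in EMT6 (log2 change -0.10 ± 0.06, adjusted p = 0.145). Psmc6 had 50.7, 53.6 and 49.5 FPKM in the EMT6 KO libraries, against 58.4, 56.1 and 64.7 FPKM in the EMT6 control libraries. In 4T1 cells Psmc6 stood at 43.1, 44.7 and 44.2 FPKM in the 4T1 KO libraries, against 45.8, 43.6 and 44.95 FPKM in the 4T1 control libraries. It fell in EMT6 without overlap (log2 change -0.22 ± 0.06, adjusted p = 0.0053) and was called lower in 4T1 with overlapping libraries (log2 change -0.11 ± 0.04, adjusted p = 0.0459). The 4T1 call was lost without any one of 4T1 KO replicates 1, 2 and 3 and control replicates 1 and 2 (adjusted p 0.0502 to 0.147, log2 change -0.12 to -0.09). Psmc4 rose in EMT6 (0.36 ± 0.06) and was called lower in 4T1 (-0.17 ± 0.05). Psmc2 had -0.01 ± 0.06 in EMT6, not called, and -0.17 ± 0.05 in 4T1, called lower. With library totals as the scaling the 4T1 calls of Psmc2, Psmc3, Psmc4 and Psmc6 were lost (log2 changes -0.09, -0.10, -0.09 and -0.03).

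Of the 4 other base subunits, 2 rose in EMT6 KO cells and the same 2 genes, Adrm1 and Psmd1, were lower in 4T1 KO cells. Of all tested genes, 27.9% were called higher in EMT6 and 29% lower in 4T1. Adrm1 (ENSMUSG00000039041, chromosome 2) encodes a ubiquitin receptor that also anchors the deubiquitinase UCHL5. It had 13.3, 13.1 and 13.6 FPKM in the EMT6 KO libraries, against 8.17, 9.23 and 9.45 FPKM in the EMT6 control libraries. In 4T1, Adrm1 had 8.44, 7.67 and 8.42 FPKM in the 4T1 KO libraries, against 9.32, 8.24 and 8.71 FPKM in the 4T1 control libraries. The EMT6 groups did not overlap (log2 change 0.57 ± 0.07, adjusted p = 5.34e-06), and the 4T1 groups did (log2 change -0.18 ± 0.07, adjusted p = 0.0301). The 4T1 call was lost without 4T1 KO replicate 2 or control replicate 1 (adjusted p 0.152 to 0.161, log2 change -0.14 to -0.13) and with library totals as the scaling (-0.10). Psmd1, a large scaffold subunit, had 47.5, 46.9 and 47.2 FPKM in the EMT6 KO libraries, against 36.9, 40.3 and 34.3 FPKM in the EMT6 control libraries. The 4T1 values of Psmd1 were 44.5, 42.98 and 43.4 FPKM in the 4T1 KO libraries, against 49.1, 49.5 and 50.9 FPKM in the 4T1 control libraries. Neither line overlapped (EMT6 log2 change 0.35 ± 0.06, adjusted p = 1.73e-04; 4T1 log2 change -0.27 ± 0.04, adjusted p = 6.80e-06). Psmd2, the other scaffold subunit, and Psmd4, a second ubiquitin receptor, were called in neither line. Their log2 changes were 0.01 ± 0.06 and 0.13 ± 0.06 in EMT6 and 0.04 ± 0.04 and 0.08 ± 0.05 in 4T1.

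The lid holds the deubiquitinase Psmd14 and scaffold subunits around it. In EMT6, 2 lid genes rose and 3 fell in KO cells (median log2 change 0.04 over 8). In 4T1, 0 rose and 5 fell (median -0.20). The EMT6 shares, 25% higher and 37.5% lower, stand beside 27.9% and 28.2% of all tested genes. The 4T1 share called lower was 62.5%, where 29% of all tested genes were. Psmd13 (ENSMUSG00000025487, chromosome 7), a scaffold subunit, had 34.4, 33.8 and 36.2 FPKM in the EMT6 KO libraries, against 22.1, 23.2 and 21.4 FPKM in the EMT6 control libraries. In 4T1 cells Psmd13 stood at 25.4, 25.3 and 27.2 FPKM in the 4T1 KO libraries, against 30.1, 26.6 and 28.6 FPKM in the 4T1 control libraries. The EMT6 groups were far apart (log2 change 0.65 ± 0.06, adjusted p = 1.50e-07). The 4T1 KO libraries were called lower (log2 change -0.21 ± 0.05, adjusted p = 0.00138), with 1 KO library above the lowest control. Psmd6, also a scaffold subunit, had 38.1, 36.7 and 36.1 FPKM in the EMT6 KO libraries, against 33.7, 34.7 and 34.1 FPKM in the EMT6 control libraries. In 4T1, Psmd6 had 21.1, 22.2 and 21.3 FPKM in the 4T1 KO libraries, against 27.9, 27.7 and 26.8 FPKM in the 4T1 control libraries. KO libraries were above controls in EMT6, where the gene was not called (log2 change 0.11 ± 0.06, adjusted p = 0.096), and below them in 4T1, where it was (log2 change -0.43 ± 0.05, adjusted p = 2.33e-07).

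Psmd8 averaged 49.6 ± 1.37 FPKM in EMT6 KO cells and 34.5 ± 3.42 FPKM in EMT6 control cells (SD, n = 3). It rose in EMT6 (log2 change 0.52 ± 0.07, adjusted p = 9.86e-06) and was not called in 4T1 (log2 change 0.11 ± 0.05, adjusted p = 0.0506). All 4T1 KO libraries of Psmd8 were above all controls, and 6 alternative fits called it higher there. Psmd3, Psmd11 and Psmd12 were called lower in both lines. Their log2 changes in EMT6 were -0.16 ± 0.06, -0.19 ± 0.05 and -0.14 ± 0.06, and in 4T1 -0.28 ± 0.04, -0.20 ± 0.04 and -0.34 ± 0.05. The EMT6 calls of Psmd3 and Psmd12 were lost without any one of EMT6 KO replicates 1, 2 and 3 and control replicates 1 and 2. Adjusted p was then 0.0629 to 0.217 for Psmd3 (log2 change -0.17 to -0.09) and 0.0659 to 0.12 for Psmd12 (-0.14 to -0.11). Psmd14 had 0.02 ± 0.06 in EMT6 and 0.05 ± 0.05 in 4T1, and its partner Psmd7 had 0.05 ± 0.05 and -0.11 ± 0.05, with no call in either line. Psmd7 was near the threshold in 4T1 (adjusted p = 0.0503 in the edgeR test), and 5 alternative fits called it lower there.

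Assembly factors help build the complex and are not part of the finished particle. In EMT6, 5 of 8 rose and 1 fell in KO cells (median log2 change 0.31). In 4T1, 1 rose and 2 fell (median -0.05). The EMT6 shares were 62.5% higher and 12.5% lower, where 27.9% and 28.2% of all tested genes were. The 4T1 shares, 12.5% higher and 25% lower, were below the 28% and 29% of all tested genes. Pomp (ENSMUSG00000029649, chromosome 5), which completes the maturation of the core, had 26.5, 28.3 and 26.5 FPKM in the EMT6 KO libraries, against 18.4, 17.7 and 14.5 FPKM in the EMT6 control libraries. The 4T1 values of Pomp were 12.99, 13.4 and 12.7 FPKM in the 4T1 KO libraries, against 18.7, 17.4 and 16.7 FPKM in the 4T1 control libraries. It was the member with the highest EMT6 change (log2 change 0.69 ± 0.08, adjusted p = 4.08e-06) and it fell in 4T1 (log2 change -0.52 ± 0.05, adjusted p = 1.86e-08), with no overlap in either line. Psmd10, a base chaperone known as gankyrin, had 46.8, 44.2 and 44.4 FPKM in the EMT6 KO libraries, against 27.6, 33.1 and 29.9 FPKM in the EMT6 control libraries. In 4T1 cells Psmd10 stood at 12.9, 13.7 and 12.9 FPKM in the 4T1 KO libraries, against 10.6, 10.7 and 11.6 FPKM in the 4T1 control libraries. KO libraries were above controls in both lines, and the gene was called in EMT6 (log2 change 0.58 ± 0.08, adjusted p = 6.94e-06) and not in 4T1 (log2 change 0.19 ± 0.09, adjusted p = 0.0859). Psmd5, another base chaperone, had 29.7, 29.3 and 29.3 FPKM in the EMT6 KO libraries, against 23.3, 24.4 and 26.9 FPKM in the EMT6 control libraries. In 4T1, Psmd5 had 18.5, 16.8 and 19.3 FPKM in the 4T1 KO libraries, against 13.4, 11.7 and 13.3 FPKM in the 4T1 control libraries. It was the one member called higher in both lines (EMT6 log2 change 0.24 ± 0.06, adjusted p = 0.00226; 4T1 log2 change 0.43 ± 0.06, adjusted p = 5.08e-07), with no overlap.

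Psmd9, the remaining base chaperone, rose in EMT6 (0.44 ± 0.09) and had -0.14 ± 0.08 in 4T1, not called. Psmg1 to Psmg4 form a pair of dimers that build the alpha ring. Psmg1 had 20.01, 18.98 and 20.5 FPKM in the EMT6 KO libraries, against 23.3, 23.7 and 22.5 FPKM in the EMT6 control libraries. The 4T1 values of Psmg1 were 17.1, 16.6 and 17.2 FPKM in the 4T1 KO libraries, against 14.1, 13.6 and 17.4 FPKM in the 4T1 control libraries. It fell in EMT6 without overlap (log2 change -0.22 ± 0.08, adjusted p = 0.0223) and overlapped in 4T1 (log2 change 0.10 ± 0.09, adjusted p = 0.351). The EMT6 call was lost without EMT6 KO replicate 1 or 2 or control replicate 2 (adjusted p 0.0557 to 0.0928, log2 change -0.23 to -0.20). Psmg2, the partner of Psmg1, was called in neither line (-0.14 ± 0.07 in EMT6 and -0.17 ± 0.08 in 4T1). Psmg3 had 0.18 ± 0.12 in EMT6 and fell in 4T1 (log2 change -0.34 ± 0.13, adjusted p = 0.0292), a call lost without 4T1 KO replicate 1 or control replicate 2 or 3 (adjusted p 0.0562 to 0.135, log2 change -0.34 to -0.25). Psmg4 rose in EMT6 (0.38 ± 0.10) and had 0.03 ± 0.15 in 4T1, where its KO libraries spread from 10.3 to 16.2 FPKM.

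Nfe2l1 moved the other way from most of the called subunits in each line. Nfe2l1 (ENSMUSG00000038615, chromosome 11) had 85.96, 87.5 and 82.4 FPKM in the EMT6 KO libraries, against 128, 121 and 153 FPKM in the EMT6 control libraries. In 4T1 cells Nfe2l1 stood at 75.6, 81.01 and 88.5 FPKM in the 4T1 KO libraries, against 63.95, 61.8 and 62.4 FPKM in the 4T1 control libraries. It fell in EMT6 (log2 change -0.65 ± 0.07, adjusted p = 1.85e-06) and rose in 4T1 (log2 change 0.30 ± 0.05, adjusted p = 7.16e-06), and the groups did not overlap in either line. Ddi2 had 5.31, 5.87 and 5.66 FPKM in the EMT6 KO libraries, against 5.06, 4.64 and 5.93 FPKM in the EMT6 control libraries. In 4T1, Ddi2 had 5.76, 6.35 and 5.56 FPKM in the 4T1 KO libraries, against 7.31, 7.98 and 7.21 FPKM in the 4T1 control libraries. Its EMT6 groups overlapped (log2 change 0.11 ± 0.08, adjusted p = 0.283) and its 4T1 KO libraries lay below all controls (log2 change -0.43 ± 0.06, adjusted p = 2.84e-06). NFE2L1 is regulated at the protein level, by cleavage and degradation, which mRNA counts do not measure.

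The knockout effects of the lines were then compared in 1 fit of all 12 libraries, as the log2 change in EMT6 minus that in 4T1. The effect was more positive in EMT6 for 21 of the 42 members and more negative for 3. Over all 12006 genes tested, 29.7% were called positive and 30.2% negative, 59.9% in all. The median difference was 0.19 over the members and -0.01 over all genes. Among the 32 subunits, 16 differences were called positive and 0 negative. By role, called positive were 4 of 7 alpha genes, 2 of 7 beta genes, 4 of 6 ATPases, 2 of 4 other base subunits and 4 of 8 lid genes. Of the 8 assembly factors, 4 were positive and 2 negative. With library totals as the scaling, 19 members were positive and 4 negative, and 14 subunits positive and 1 negative.

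The 6 members with the lowest p were Psmc1, Pomp, Psmd13, Nfe2l1, Psmc3 and Psmd1. Psmc1 differed by 0.96 ± 0.06 (SE; adjusted p = 7.86e-12) and Pomp by 1.18 ± 0.10 (adjusted p = 1.79e-09). Psmd13 differed by 0.84 ± 0.08 and Nfe2l1 by -0.97 ± 0.09 (adjusted p = 5.07e-09 and 2.29e-08). Psmc3 differed by 0.59 ± 0.07 and Psmd1 by 0.60 ± 0.07 (adjusted p = 1.32e-07 and 3.08e-07). Nfe2l1 was the one of these 6 with a negative difference. Of the catalytic genes, Psmb5 differed by 0.62 ± 0.12 (adjusted p = 1.06e-04), Psmb7 by 0.19 ± 0.08 (0.0411) and Psmb6 by -0.01 ± 0.07 (0.95). The Psmb7 difference missed the threshold when any one of 8 libraries was left out. These were 4T1 KO replicates 1 and 2, 4T1 control replicates 2 and 3, EMT6 KO replicates 2 and 3 and EMT6 control replicates 1 and 2 (adjusted p 0.051 to 0.129, difference 0.15 to 0.20).

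Set beside each other, 11 members were called higher in EMT6 KO cells and lower in 4T1 KO cells, where 10.2% of all genes tested in both lines were. They were Psma2, Psma3 and Psma6 of the alpha rings, Psmb5, the ATPases Psmc1, Psmc3 and Psmc4, the base subunits Psmd1 and Adrm1, the lid subunit Psmd13, and Pomp. Nfe2l1 alone was lower in EMT6 and higher in 4T1, where 9.42% of all genes were. Psmd5 was higher in both (7.05% of all genes), and Psmb6, Psmc6, Psmd3, Psmd11 and Psmd12 were lower in both (7.85%). Called in neither line were 11 members, against 21.1% of all genes. The lines share no library. Across the 42 members the 2 changes had a Spearman correlation of -0.11, the same value as across all 12006 genes, a description without a test.

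**Figure D4:**
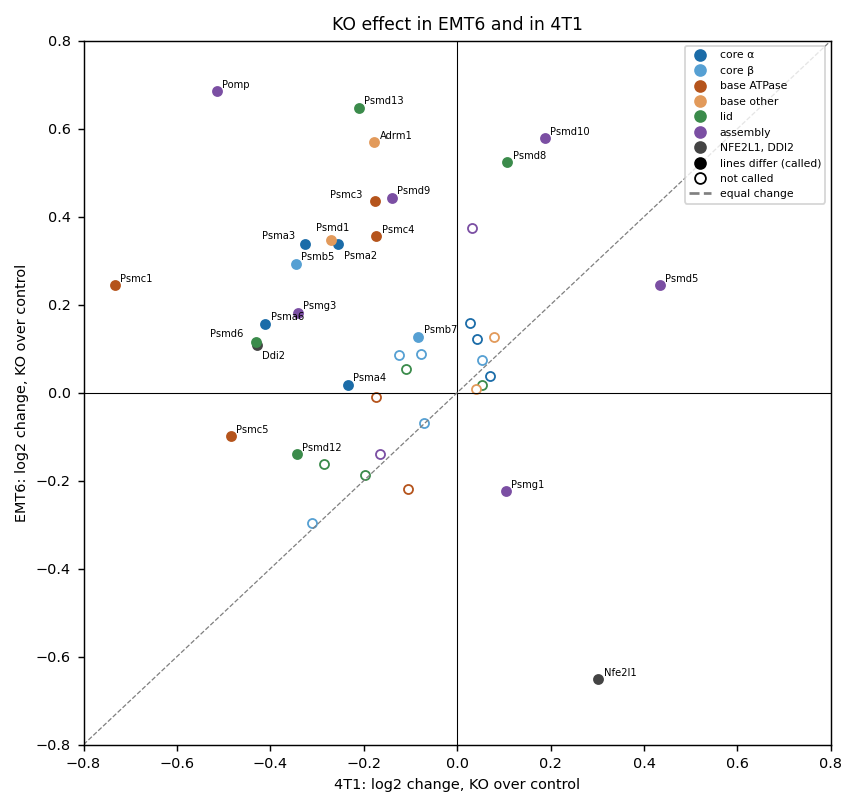
Log2 change of KO over control in EMT6 (y axis) against that in 4T1 (x axis) for the 42 genes, coloured by role. Filled, named points are genes whose changes differ between the lines at an adjusted p under 0.05, and the dashed line marks equal change. Points above the line, 21 of the 24 filled ones, had a more positive change in EMT6. Nfe2l1, Psmg1 and Psmd5 lie below it.

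The members lie on 16 chromosomes, and the median change of all tested genes differed between chromosomes in both lines. In EMT6 it was -0.27 on chromosome 14 and -0.23 on chromosome 11, and 0.27 on chromosome X. In 4T1 it was -0.21 on chromosome 12 and -0.16 on chromosome 1, and 0.30 on chromosome X. The 7 members on chromosome 11 include Psmb6, Psmd3, Psmd11, Psmd12 and Nfe2l1, and their chromosome's median was below 0 in both lines (-0.12 in 4T1). Psmd10 lies on chromosome X, whose median was above 0 in both lines. Set against its own chromosome's median, a member lay above in 34 of 42 cases in EMT6 and in 6 of 42 in 4T1. The median of these differences was 0.15 in EMT6 and -0.12 in 4T1.

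**Figure D5:**
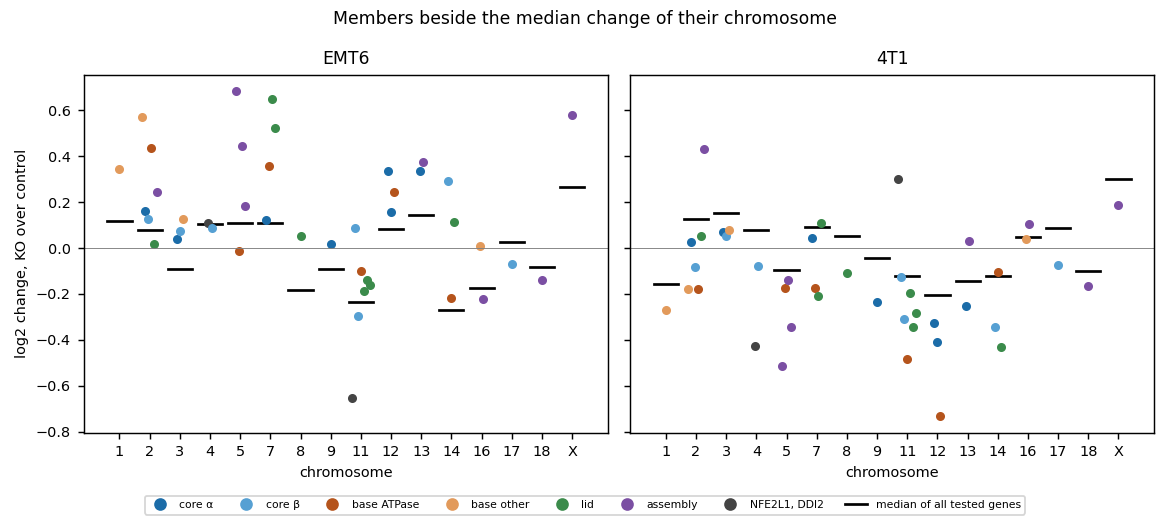
Log2 change of KO over control (y axis) of each member by its chromosome (x axis), with EMT6 left and 4T1 right. Points are members coloured by role, and black bars are the median change of all tested genes on that chromosome. Most points lie above the bar in EMT6 (34 of 42) and below it in 4T1 (36 of 42).

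Some counts could include reads of a neighbour, since the strand setting of the counting is not given. In GENCODE M21, 11 of the 42 members share exonic bases with another gene, 4 of them on the same strand (Ddi2, Psmb5, Psmd1 and Psmg3). Psmd13 overlaps Sirt3 on the opposite strand, which averaged 0.723 FPKM in EMT6 KO cells and 0.943 FPKM in EMT6 control cells. Sirt3 averaged 1.09 FPKM in 4T1 KO cells and 0.89 FPKM in 4T1 control cells, and was called in neither line. Psmc3 overlaps Slc39a13 on the opposite strand, at 24.9 FPKM in EMT6 KO cells and 21.3 FPKM in EMT6 control cells. Slc39a13 was called higher in EMT6, as Psmc3 was (log2 change of Slc39a13 0.23 ± 0.07, adjusted p = 0.00711). It had 20.6 FPKM in 4T1 KO cells and 18.3 FPKM in 4T1 control cells and was not called there. Psmb7 overlaps Nek6 on the opposite strand, at 7.06 FPKM in EMT6 KO cells and 8.33 FPKM in EMT6 control cells. Nek6 had 5.37 FPKM in 4T1 KO cells and 4.4 FPKM in 4T1 control cells. It was called lower in EMT6 (-0.23 ± 0.06, adjusted p = 0.00526) and higher in 4T1 (0.21 ± 0.06, adjusted p = 0.00591). These members are uncertain to the extent that reads were shared.

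Genes around the constitutive proteasome were taken from 4 further lists. Among all tested genes, 27.9% were called higher and 28.2% lower in EMT6, and 28% and 29% in 4T1. Of 8 immunoproteasome and activator genes, 3 rose and 2 fell in EMT6 KO cells, and 0 rose and 5 fell in 4T1 KO cells. Psmb8, Psmb9 and Psmb10, the inducible catalytic subunits that replace Psmb5, Psmb6 and Psmb7, were the 3 that rose in EMT6. Psmb10 averaged 51.4 ± 4.74 FPKM in EMT6 KO cells and 29.2 ± 3.88 FPKM in EMT6 control cells (SD, n = 3; log2 change 0.82 ± 0.10, adjusted p = 1.41e-05), and Psmb8 and Psmb9 had log2 changes of 0.48 ± 0.06 and 0.61 ± 0.07. In 4T1, Psmb8 and Psmb10 were called lower (-0.24 ± 0.07 and -0.28 ± 0.10), and Psmb9 had 0.19 ± 0.14, not called. The Psmb10 call in 4T1 was lost without 4T1 KO replicate 2 or control replicate 3 (adjusted p 0.0926 to 0.122, log2 change -0.23 to -0.22). With library totals as scaling, neither gene was called in 4T1 (log2 change -0.16, adjusted p = 0.0719 for Psmb8 and -0.20, adjusted p = 0.116 for Psmb10). The Psmb10 call was also lost in DESeq2 (adjusted p = 0.0574) and with a filter of at least 5 FPKM (adjusted p = 0.0853). Psme1, an activator of the core, fell in both lines (-0.33 ± 0.06 in EMT6 and -0.33 ± 0.07 in 4T1), and its partner Psme2 was called in neither (0.08 ± 0.08 and 0.17 ± 0.12). Psme3, a nuclear activator, fell in 4T1 (log2 change -0.67 ± 0.04, adjusted p = 7.11e-12), and Psmf1, an inhibitor of the core, was called lower there (-0.20 ± 0.06). The Psmf1 call was lost with library totals (log2 change -0.12, adjusted p = 0.106) and at 5 FPKM or more (-0.13, adjusted p = 0.0553).

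Of the proteasome-associated genes, 4 rose and 3 fell of 15 tested in EMT6, and 2 rose and 4 fell of 14 tested in 4T1. These were 26.7% higher and 20% lower in EMT6, where 27.9% and 28.2% of all tested genes were. In 4T1 they were 14.3% and 28.6%, where 28% and 29% of all tested genes were. In EMT6, Fbxo7 fell (-0.41 ± 0.07), and Ubqln2 and Zfand5 rose (0.59 ± 0.11 and 0.25 ± 0.05). Ubqln2 encodes a shuttle that carries ubiquitinated proteins to the proteasome. It lies on chromosome X, whose median change was 0.27 in EMT6, and it was not tested in 4T1. In 4T1, the deubiquitinases Uchl5 and Usp14 fell (-0.40 ± 0.05 and -0.27 ± 0.05). Usp14 was called lower in EMT6 too (-0.14 ± 0.05, adjusted p = 0.0321), and its line difference was not called (adjusted p = 0.147). That EMT6 call was lost without EMT6 KO replicate 1, 2 or 3, with the replicate block and with no low-count filter. Akirin2, which helps import proteasomes into the nucleus, and Ecpas rose in 4T1 (0.42 ± 0.06 and 0.24 ± 0.04). Of 14 genes of NFE2L1 processing and its partners, 4 rose and 4 fell in EMT6, and 1 rose and 3 fell in 4T1, Ddi2 among them. The EMT6 shares of this list, 28.6% higher and 28.6% lower, were near those of all tested genes. Its 4T1 shares, 7.14% higher and 21.4% lower, were below those of all tested genes. Nfe2l2, a relative of Nfe2l1, and Mafg, a dimer partner, fell in EMT6 (-0.38 ± 0.06 and -0.30 ± 0.05). Vcp, which extracts NFE2L1 from the membrane, and Sel1l rose there (0.31 ± 0.07 and 0.39 ± 0.06). In 4T1, Ngly1, the enzyme that removes sugars from NFE2L1, fell (log2 change -0.65 ± 0.12, adjusted p = 8.65e-05). Ngly1 was called lower in EMT6 too (-0.335 ± 0.114, adjusted p = 0.0191), a call lost without EMT6 KO replicate 2 or control replicate 3. Its line difference was not called (adjusted p = 0.13). Bach1 was called higher and Sel1l lower in 4T1 (0.16 ± 0.06 and -0.13 ± 0.05). Both calls were lost without 4T1 KO replicate 1 or control replicate 3 (adjusted p 0.0722 to 0.0867 for Bach1, log2 change 0.13 to 0.14, and 0.062 to 0.0731 for Sel1l, -0.12). The Bach1 call was also lost with no low-count filter (adjusted p = 0.123), and the Sel1l call in DESeq2 (adjusted p = 0.0556), at 5 FPKM or more (0.24) and with library totals (0.416).

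Of 11 genes of ubiquitin supply, 5 rose and 3 fell in EMT6, and 2 rose and 4 fell in 4T1. These were 45.45% higher and 27.27% lower in EMT6, where 27.9% and 28.2% of all tested genes were. In 4T1 they were 18.18% and 36.36%, where 28% and 29% of all tested genes were. Uba1, the main enzyme that activates ubiquitin, averaged 140.4 ± 5.03 FPKM in EMT6 KO cells and 63.4 ± 2.84 FPKM in EMT6 control cells (SD, n = 3) and rose (log2 change 1.15 ± 0.06, adjusted p = 8.60e-11), more than any proteasome member. In 4T1 Uba1 rose as well (log2 change 0.26 ± 0.04, adjusted p = 7.01e-06). Uba1 lies on chromosome X, whose median change was 0.27 in EMT6 and 0.30 in 4T1. Usp5, which recycles ubiquitin chains, and Ube2d3, a conjugating enzyme, rose in EMT6 (0.37 ± 0.06 and 0.31 ± 0.05). Ubb, a polyubiquitin gene, fell in both lines (-0.34 ± 0.06 in EMT6 and -0.24 ± 0.04 in 4T1). Ube2k, a conjugating enzyme, fell in 4T1 (-0.33 ± 0.05). Ubiquitin genes have near-identical copies, so their counts are uncertain.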

How the data were processed

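Total RNA was sequenced as mRNA-captured libraries, per the labels' protocols. The authors deposited 1 table per line with raw read counts per gene, FPKM (scaled by the authors with the deposited exonic size and library total) and annotation, per the file headers. The exonic size is deposited as other annotation and was not tested. Per the submitters' processing notes, cutadapt 1.9.1, HISAT2 2.2.1, HTSeq 0.6.1, DESeq2 and the genome GRCm38 were used, and these sources do not give the role of each tool or the strand setting. Gene coordinates in the deposited tables do not match GENCODE M21, an annotation of GRCm38, so the tables' chromosome names alone were used. No per-sample column was left unused (0 columns).

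Counts were fitted in R 4.3.3 with edgeR 4.0.16 (filterByExpr, TMM, robust quasi-likelihood test, Benjamini-Hochberg over all tested genes, 2-sided, called at 0.05), separately in each line over 6 libraries, and as an interaction over 12. Alternatives used DESeq2 1.42.0, limma 3.58.1, other scaling and filters, a replicate block and leaving out each library. An exact permutation test of 3 against 3 cannot go below 0.1 and was not used. In each library 3 counts correspond to 0.152 to 0.219 CPM, and such limits cover counting error only. Pairs of libraries of 1 group differed by a chi-square per degree of freedom of 2.44 to 11.7, so none was counted as a duplicate. No shared deviation by replicate number was seen, and the main fit used no pairs.

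The members, lists and tests were chosen with earlier results of these data known. Values in every library are given for Nedd4, the catalytic genes, Nfe2l1, Ddi2, Pomp, the 4 highest and 4 lowest called members per line and the 6 lowest p of the line difference. From other lists, the inducible subunits, Psme1, Psme2 and up to 4 called genes per line with the lowest adjusted p are named. Paaf1, looked for among the associated genes, was not matched by symbol. Some genes of the lists are counted but not reported here by name.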

Additional observations from a re-analysis of the deposited data

Results flagged for a closer look

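The knockout effect of 24 members differed between the lines by the interaction term of the edgeR fit (quasi-likelihood test, Benjamini-Hochberg), where 59.9% of all genes tested did. Values are the log2 change in EMT6 minus that in 4T1. In the core they were Psma2 (0.57), Psma3 (0.64), Psma4 (0.23), Psma6 (0.55), Psmb5 (0.62) and Psmb7 (0.19). In the base they were Psmc1 (0.96), Psmc3 (0.59), Psmc4 (0.51), Psmc5 (0.36), Psmd1 (0.60) and Adrm1 (0.73). In the lid they were Psmd6 (0.53), Psmd8 (0.40), Psmd12 (0.18) and Psmd13 (0.84). Among assembly factors they were Pomp (1.18), Psmd5 (-0.21), Psmd9 (0.56), Psmd10 (0.37), Psmg1 (-0.35) and Psmg3 (0.50). For the transcription pair they were Nfe2l1 (-0.97) and Ddi2 (0.52). The same sign of the change in both lines, with a difference in size, was seen for Psmd5, Psmd8, Psmd10, Psmc5 and Psmd12. The difference of Psmd5 was lost when any one of 7 libraries was left out (4T1 KO replicates 1 and 3, 4T1 control replicate 2, EMT6 KO replicates 1, 2 and 3 and EMT6 control replicate 3; adjusted p 0.0593 to 0.122, difference -0.21 to -0.15). That of Psmd12 was lost for any one of 4 (4T1 KO replicates 2 and 3, 4T1 control replicate 1 and EMT6 control replicate 3; adjusted p 0.0559 to 0.0787, difference 0.15 to 0.18). Psmg1 lost it without 4T1 control replicate 2 (-0.29, adjusted p = 0.0509) and Psmg3 without 4T1 control replicate 3 (0.41, adjusted p = 0.0617). No single library was tested as standing apart, since each group holds 3.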

How the results depend on the processing

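No member that was called in edgeR's quasi-likelihood test changed sign under any alternative run. In EMT6, 18 of 24 calls held under each of 13 alternatives that tested the gene, in 4T1 18 of 25 likewise, and for the line difference 19 of 24 under each of 19. Psmd9 and Psmg3 were not tested at 5 FPKM or more. Fragile calls in EMT6 were Psma6, Psma7, Psmd3, Psmd11, Psmd12 and Psmg1, and in 4T1 Adrm1, Psmb3, Psmc2, Psmc3, Psmc4, Psmc6 and Psmg3. Calls gained under some alternative numbered 5 in EMT6, 11 in 4T1 and 8 for the line difference. With library totals as scaling, 4T1 gave 10 members higher and a median of -0.09. Without a low-count filter, the member median was 0.15 in EMT6 and -0.20 in 4T1 (all-gene median -0.016 and 0.116), EMT6 gave 3 members lower, and the line difference 1 lower (all-gene median -0.106). With at least 5 FPKM on average, 40 members were tested. All-gene calls were then 4813 in EMT6, 4897 in 4T1 and 4394 for the line difference, against 7224, 7589 and 7197. The EMT6 median was then 0.097, and in 4T1 9 members were higher with a median of -0.106. Chromosome centring gave medians of 0.148 in EMT6 and -0.118 in 4T1. The cause of these moves was not tested, beyond fewer genes entering at 5 FPKM.

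Leaving out 1 library gave 6242 to 7040 called genes in EMT6, 6853 to 7293 in 4T1 and 6818 to 7211 for the line difference. Members called higher were 15 to 20 in EMT6 and 2 to 3 in 4T1, and called lower 4 to 7 in EMT6 and 20 to 22 in 4T1. The low of 4 was without EMT6 KO replicate 1, KO replicate 2 or control replicate 2. The member median was 0.085 to 0.154 in EMT6 and -0.178 to -0.15 in 4T1. For the line difference, 19 to 24 members were positive and 1 to 3 negative, with 1 without 4T1 control replicate 2. DESeq2 gave 17 higher and 6 lower in EMT6, 2 and 19 in 4T1, and 21 and 3 for the line difference.

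The labels give KO and control libraries the same replicate numbers. Same-numbered libraries did not deviate together from their group means (correlations -0.13 to -0.007 in EMT6 and -0.023 to 0.009 in 4T1). These values cannot show whether the libraries were prepared in pairs, since they measure only shared deviation of the counts. A fit with the replicate block gave 17 members higher and 5 lower in EMT6, 3 and 24 in 4T1, and 21 and 3 for the line difference, with 6830, 7676 and 6997 genes called. The fewest counts among the members were those of Psmg4 in 4T1 (97 to 158 per library), with an SE of 0.15 on its log2 change.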
